A study of Mus musculus with 60 samples.

Results

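The genes described here are 40 genes of the NF-kB pathway and its well-known targets, chosen by name, with earlier results of these data known. They comprised the 5 NF-kB subunits, 8 inhibitors and feedback proteins, 7 receptors, 9 adaptors and kinases, 6 survival genes and 5 other target genes. All 40 were present in each of the 3 count tables, which held 23440, 23068 and 28773 genes, and 37, 39 and 38 of them had enough counts to be tested among 12699, 13738 and 13927 genes. Traf1 was tested in no table, Nod2 only in the passage experiment, and Nfkbie in the passage experiment and the single organoids.

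NF-kB is a family of transcription factors that work as dimers and wait in the cytoplasm, held there by inhibitor proteins of the IkB family. Ligands such as tumour necrosis factor, interleukin 1 or bacterial products bind receptors on the cell, adaptors and kinases then have the inhibitor phosphorylated and destroyed, and the dimer moves to the nucleus. Among its targets are its own inhibitors, so that the response limits itself, together with genes of cell survival, cell adhesion and inflammation. In the liver the pathway is best known for the response to injury, and cholangiocytes, the cells that line the bile ducts, answer bacterial products and cytokines through it.

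The organoids were grown from cholangiocytes of C57BL/6N mice that were 3 to 4 months old, and the labels name no genetic change and no added agent in any group. The design had 3 experiments, all read by sequencing of transcript 3′ ends. In the culture experiment, organoids of 3 pools of mice were grown either in solid Matrigel drops (Dome, 3 libraries) or on a shaker in dilute Matrigel (Suspension, 3 libraries). In the passage experiment, organoids of Sets 1, 3 and 4, each from 1 mouse, were sampled in bulk at passage 4 and at passage 11, with 2 technical replicates each that were summed here. In the single-organoid experiment, each library was 1 organoid from suspension culture, and 35 of 42 libraries were used, with 8, 10, 5 and 12 organoids in Sets 1 to 4. By the study's text Set 1 was then at passage 11, Sets 2 and 3 at passage 3 and Set 4 at passage 4. A set was thus 1 mouse at 1 passage, and mouse, passage and culture cannot be told apart between sets. Passages are given as the columns were labelled. The study's text and the legend of its passage figure describe the direction of the passage difference in opposite ways, so the labels could not be checked against them. The text places terms of interferon and tumour necrosis factor signalling with genes higher at passage 11. By the legend the same panel shows terms of genes lower at passage 11. Were the labels of the passages exchanged, every sign in the passage experiment would be reversed.

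Total counts were 1776490 to 14761853 in Dome, 3837619 to 12089655 in Suspension, 3911719 to 5532630 at passage 4, 1486347 to 4938864 at passage 11 and 1059002 to 11175868 in single organoids. Dome 1 held 14761853 counts, while the other Dome libraries held 1885591 and 1776490. The share of mitochondrial counts was 1.64% to 2.02% in Dome and 3.72% to 4.02% in Suspension, and 1.99% to 2.63% at passage 4 against 0.895% to 1.71% at passage 11. Cholangiocyte markers summed to between 3015 and 9229 CPM (a gene's counts scaled to a common library size) in every library, endothelial markers to at most 2.42 CPM and mesenchymal markers to at most 0.691 CPM. Hepatocyte markers summed to 308 to 734 CPM at passage 4 and 788 to 1147 at passage 11, without overlap. Of those tested between passages, Ttr had the highest average level and did not pass (log2 fold change 0.73). Apoa1 passed (4.66), and Hnf4a (0.42) and Alb (-1.79) did not. Hepatocyte markers summed to 256 to 638 CPM in Suspension and 306 to 841 in Dome, and to 447 to 2651 in single organoids. The leukocyte list summed to 881 to 1161 CPM at passage 4 and 381 to 624 at passage 11, and to 524 to 649 in Suspension and 207 to 281 in Dome. Most of it was Cd14, a co-receptor for bacterial lipopolysaccharide, and without Cd14 the group means summed to 12.1, 4.52, 6.59 and 43.1 CPM in the same order. Of the defining leukocyte genes Ptprc, Adgre1, Csf1r, Lyz2, Itgam, Cd3e and Cd79a, those present in the tables stayed at or below 4.85 CPM in every library. In bulk samples, fewer cells of a type and less RNA per cell cannot be told apart.

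NF-kB binds a sequence of 10 bases known as the kappaB site, and the promoters of several members hold it. In RefSeq promoters of the build GRCm38.p6, 33 members had an entry and 12 of them, 36.4%, held a kappaB match in the 250 bases before a transcription start, searched on both strands as 3 G, a purine, any 2 bases, 2 pyrimidines and 2 C. The same match stood in 33.3% of the 42 windows of members and in 7.25% of all 32851 promoter windows. By role, 2 of 3 subunit genes with an entry held it, 4 of 7 inhibitor genes, 1 of 7 receptor genes, 1 of 7 adaptor and kinase genes, 2 of 5 survival genes and 2 of 4 other target genes. Of the 13 members that passed the test in the passage experiment, 11 had an entry and 5 held the match, and of the 26 tested there that did not pass, 21 had an entry and 7 held it. The promoters of 4 of the 5 that passed and held it follow, 3 of them of the pathway's own inhibitors. They are written 5′ to 3′ in the direction of the gene, and the matches are in capitals.
Nfkbia, chr12:55492648-55492897, minus strand: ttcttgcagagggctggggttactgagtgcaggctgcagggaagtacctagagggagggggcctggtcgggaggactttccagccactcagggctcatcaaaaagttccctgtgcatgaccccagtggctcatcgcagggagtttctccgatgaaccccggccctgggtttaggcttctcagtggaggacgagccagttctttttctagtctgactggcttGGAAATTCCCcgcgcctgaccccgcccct
Tnfaip3, chr10:19015411-19015660, minus strand: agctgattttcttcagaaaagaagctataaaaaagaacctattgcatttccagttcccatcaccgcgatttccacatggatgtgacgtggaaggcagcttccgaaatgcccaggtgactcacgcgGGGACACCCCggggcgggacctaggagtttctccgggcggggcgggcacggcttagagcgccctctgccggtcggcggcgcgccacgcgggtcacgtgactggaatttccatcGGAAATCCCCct
Tnip1, chr11:54962941-54963190, minus strand: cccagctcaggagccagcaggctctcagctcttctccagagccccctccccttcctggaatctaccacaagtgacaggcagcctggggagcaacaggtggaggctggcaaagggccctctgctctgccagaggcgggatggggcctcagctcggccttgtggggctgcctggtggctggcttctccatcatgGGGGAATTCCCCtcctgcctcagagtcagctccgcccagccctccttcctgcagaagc
Ier3, chr17:35821463-35821712, plus strand: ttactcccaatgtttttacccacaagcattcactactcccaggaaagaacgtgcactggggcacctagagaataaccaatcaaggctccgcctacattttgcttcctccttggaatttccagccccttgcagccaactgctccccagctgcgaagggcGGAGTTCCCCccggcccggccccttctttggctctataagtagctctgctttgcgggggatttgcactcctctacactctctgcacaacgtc
The match in the Nfkbia promoter, GGAAATTCCC, began 29 bases before the start. Tnfaip3 held GGGACACCCC at 125 bases and GGAAATCCCC at 12 bases before the start, and a further RefSeq start of this gene had no match. The capitals in Tnip1 are overlapping matches that began 58 to 56 bases before the start, and Ier3 held GGAGTTCCCC at 92 bases. Some matches, such as the first of Tnfaip3, fit the site on both strands. A match is a description of the letters and was not tested for binding.

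The passage experiment asked what differs between early and late cultures of the same mice. Of the 39 members tested, 13 were lower in the cultures labelled passage 11 (33.3%, against 10.1% of all genes tested) and 0 were higher (10.1% of all genes) by edgeR's quasi-likelihood test at an adjusted p under 0.05. None of the members was higher at an unadjusted p under 0.05 either, and DESeq2 and limma-voom also called 0 higher. The values at passage 11 lay below every value at passage 4 for 20 of the 39 members, against 19.5% of all genes, and the median log2 fold change of members was -0.52 against -0.05 for all genes. Within sets, 27 members were lower in each of the 3 sets (28% of all genes), 4 were higher in each (26.9%) and 8 were mixed, and the median difference of members was -0.47, -0.52 and -0.59 in Sets 1, 3 and 4. Leaving out Set 3 at both passages left 3 members called lower. The members that fell belonged to every role, with 1 of 5 subunits, 4 of 8 inhibitors, 2 of 7 receptors, 1 of 8 adaptors and kinases, 3 of 6 survival genes and 2 of 5 other targets.

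The log2 fold changes of all members in both bulk comparisons are plotted by role.

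**Figure D1:**
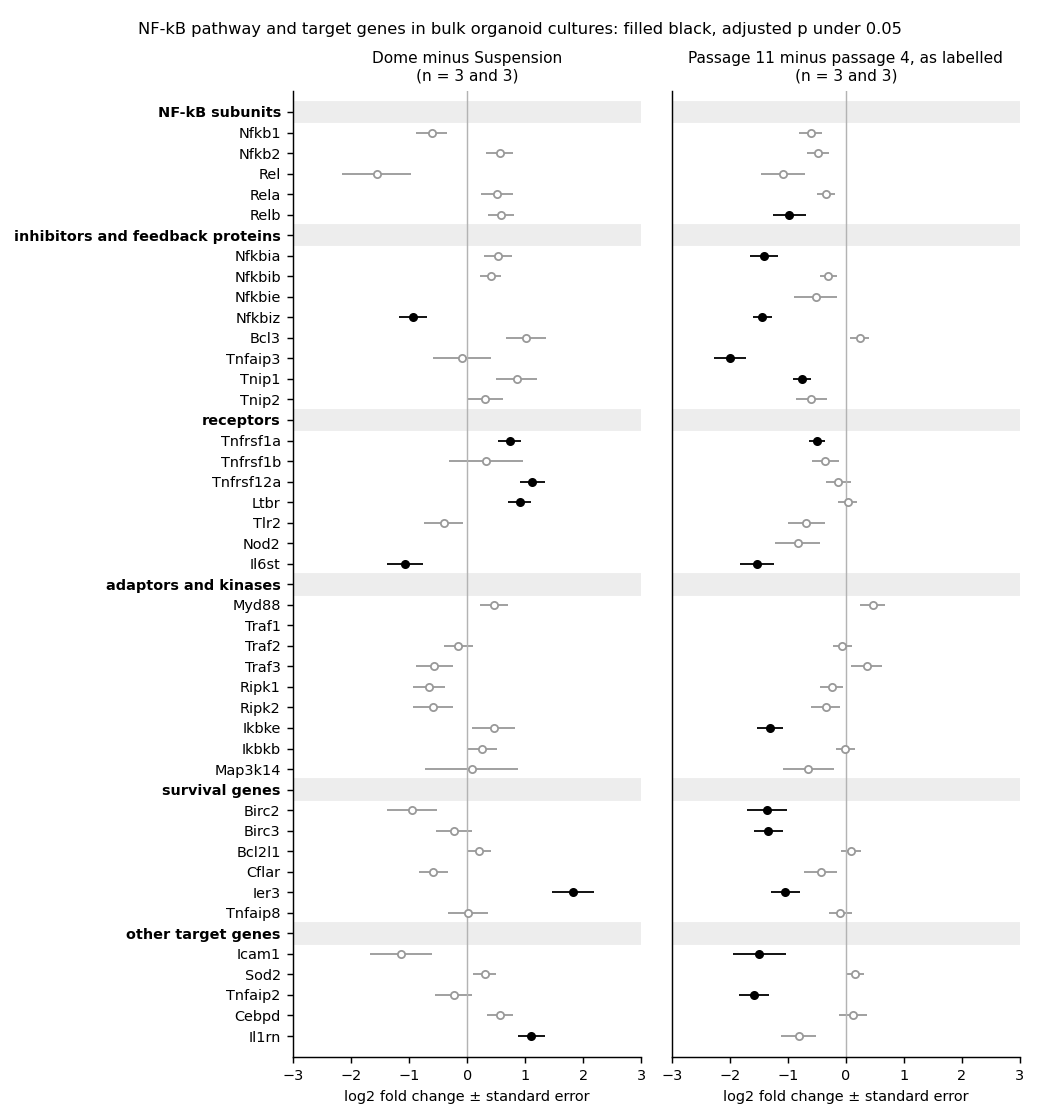
Log2 fold change with its standard error for each tested member, by role, for Dome minus Suspension (left) and passage 11 minus passage 4 (right), 3 and 3 samples each. Filled black points passed an adjusted p under 0.05, 5 higher and 2 lower on the left and 13 lower on the right, and members with no point were not tested.

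Of the 8 inhibitors, 4 were lower at passage 11. Nfkbia, which encodes the IkB alpha protein that holds NF-kB in the cytoplasm and is itself an NF-kB target, was at 1275, 1225 and 891 CPM in Sets 1, 3 and 4 at passage 4 and at 568, 416 and 286 CPM at passage 11. Every passage 11 culture was below every passage 4 culture, and the log2 fold change was -1.41 (SE 0.24, adjusted p = 0.0041, edgeR), a 2.66-fold lower level. Tnfaip3, a ubiquitin-editing enzyme that shuts the signal off, was at 43.0, 27.3 and 28.0 CPM at passage 4 and at 8.08, 10.1 and 4.45 CPM at passage 11. Its log2 fold change of -1.99 (SE 0.27, adjusted p = 0.0016, edgeR), or 3.98-fold, was the largest of any member, and the groups did not overlap. Nfkbiz, a nuclear IkB protein that acts with the subunits on a part of their targets, was at 43.0, 46.1 and 44.0 CPM at passage 4 and at 18.2, 16.3 and 13.4 CPM at passage 11. The log2 fold change was -1.44 (SE 0.16, adjusted p = 7.57e-04, edgeR), and the 3 cultures of each passage lay close together. Tnip1, which binds the Tnfaip3 protein and restrains the pathway with it, fell by 0.76 on the log2 scale (SE 0.15, adjusted p = 0.0083, edgeR). Of the other inhibitors, Bcl3 had a log2 fold change of 0.24 and Nfkbib, Nfkbie and Tnip2 had values between -0.60 and -0.30, and none of the 4 passed the test.

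The 5 subunits were each lower at passage 11 in every set, and only Relb passed the test. Relb, the subunit of the slower, non-canonical arm of the pathway, was at 49.3, 37.2 and 30.1 CPM at passage 4 and at 20.0, 25.8 and 9.54 CPM at passage 11. The groups did not overlap, and the log2 fold change was -0.97 (SE 0.28, adjusted p = 0.0356, edgeR). The call of Relb held in 11 of 18 alternatives, and was lost without Set 1 and without Set 3. Nfkb1, which encodes the precursor of the p50 subunit, was at 48.2, 50.1 and 42.4 CPM at passage 4 and at 34.3, 35.0 and 19.7 CPM at passage 11 (log2 fold change -0.61, SE 0.20, adjusted p = 0.0523, edgeR). With the set as a block its adjusted p was 0.022. Nfkb2, which encodes the precursor of the p52 partner of Relb, was at 59.9, 46.4 and 39.4 CPM and at 37.7, 38.0 and 26.1 CPM (-0.48, adjusted p = 0.111, edgeR; with the set as a block, 0.0453). Rel was at 4.93, 3.26 and 4.22 CPM and at 2.47, 1.39 and 1.91 CPM (-1.09, SE 0.38, adjusted p = 0.066, edgeR). Rela, which carries the main activation domain of the canonical dimer, was at 77.5, 59.3 and 58.4 CPM and at 55.9, 51.3 and 45.8 CPM (-0.34, SE 0.16, adjusted p = 0.158, edgeR). For Nfkb1, Nfkb2, Rel and Rela the 3 and 3 values did not overlap, as for 19.5% of all genes, which were lower at passage 11. None of the 4 passed without the block, while Nfkb1 and Nfkb2 passed with it.

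**Figure D2:**
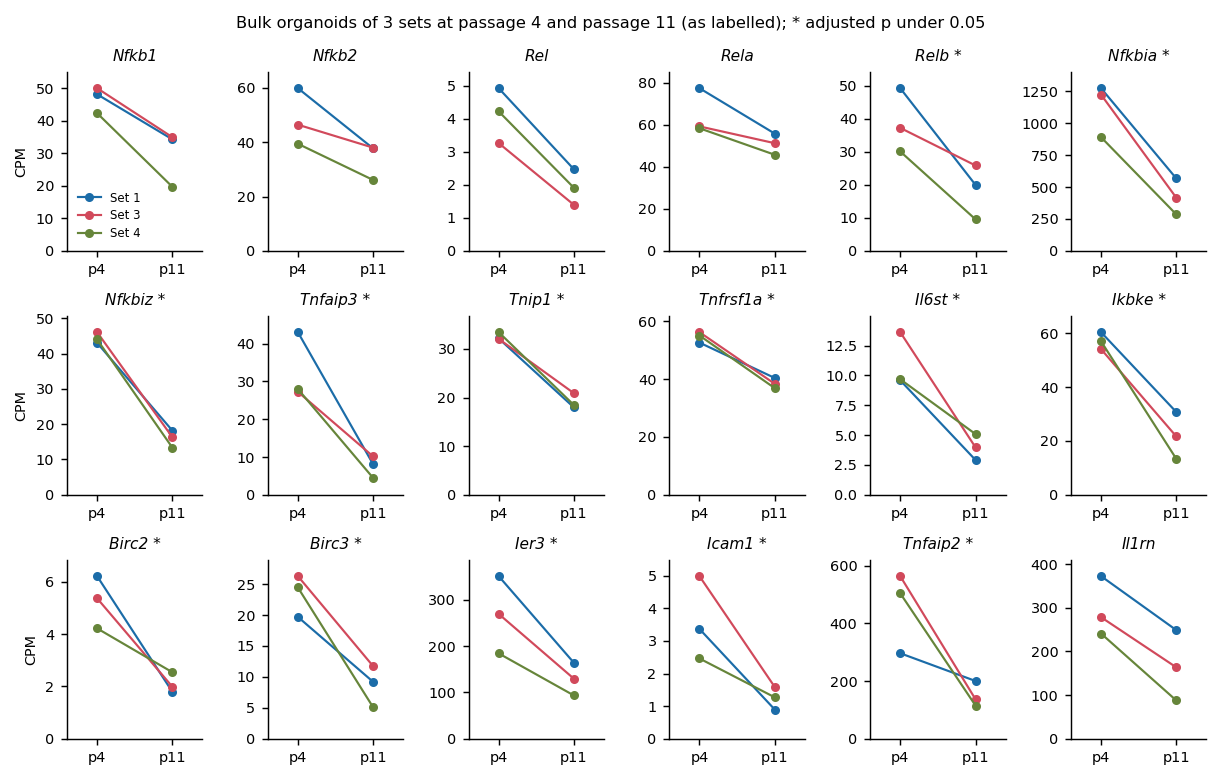
CPM of 18 members in bulk organoids at the early (p4) and late (p11) passage, 1 line for each of Sets 1, 3 and 4, with axes from 0. An asterisk marks an adjusted p under 0.05. All lines run downward, as for Nfkbia from 891 to 1275 CPM at passage 4 to 286 to 568 CPM at passage 11.

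Target genes outside the inhibitors fell as well. Tnfaip2, a cytokine-induced gene of membrane and vesicle traffic, was at 296, 564 and 504 CPM at passage 4 and at 200, 137 and 115 CPM at passage 11 (log2 fold change -1.59, SE 0.26, adjusted p = 0.0037, edgeR). The fall was larger in Sets 3 and 4, at -2.04 and -2.13, than in Set 1, at -0.57. Icam1, an adhesion molecule that leukocytes bind, was at 3.37, 4.99 and 2.46 CPM at passage 4 and at 0.898, 1.59 and 1.27 CPM at passage 11 (-1.49, SE 0.45, adjusted p = 0.041, edgeR). These are low levels, and the call held in 5 of 18 alternatives. Il1rn, the secreted antagonist of the interleukin 1 receptor, did not pass (-0.82, SE 0.31, adjusted p = 0.0847, edgeR) but did with the set as a block (adjusted p = 0.00495). Cebpd, a transcription factor of the acute phase response, and Sod2, the mitochondrial superoxide dismutase, had log2 fold changes of 0.12 and 0.16 and did not pass.

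Of the survival genes, the inhibitors of apoptosis and Ier3 fell. Birc3 was at 19.7, 26.3 and 24.5 CPM at passage 4 and at 9.20, 11.7 and 5.09 CPM at passage 11 (-1.34, SE 0.25, adjusted p = 0.0062, edgeR). Birc2, its close relative, was at 6.22, 5.37 and 4.22 CPM and at 1.80, 1.99 and 2.54 CPM (-1.36, SE 0.34, adjusted p = 0.0206, edgeR), with no overlap for either gene. The levels of Birc2 are low, and its call held in 8 of 18 alternatives and was not made by DESeq2 (adjusted p = 0.0679). Ier3, an immediate early gene that modulates apoptosis, fell by 1.04 on the log2 scale (SE 0.25, adjusted p = 0.0168, edgeR). Bcl2l1, Cflar and Tnfaip8, which also restrain cell death, had log2 fold changes of 0.09, -0.44 and -0.09 and did not pass.

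Among the genes listed as receptors 2 of 7 passed, and among the adaptors and kinases 1 of 8. Il6st, the signal-transducing receptor chain shared by the interleukin 6 family, was at 9.59, 13.6 and 9.68 CPM at passage 4 and at 2.92, 3.98 and 5.09 CPM at passage 11 (-1.53, SE 0.29, adjusted p = 0.0068, edgeR). Tnfrsf1a, the main receptor for tumour necrosis factor on epithelium, fell by 0.50 on the log2 scale (SE 0.13, adjusted p = 0.0238, edgeR). That call held in 9 of 18 alternatives and was not made by DESeq2 (adjusted p = 0.0759). Tnfrsf12a, Ltbr, Tnfrsf1b, Tlr2 and Nod2 had values from -0.83 to 0.03 and did not pass. Ikbke, an IkB kinase family member that is induced by the pathway, fell by 1.32 (SE 0.23, adjusted p = 0.0043, edgeR), whereas Ikbkb, the catalytic kinase of the canonical arm, had a log2 fold change of -0.01. Myd88, the adaptor of Toll-like and interleukin 1 receptors, was higher in all 3 sets, by 1.03, 0.13 and 0.36 on the log2 scale, and Bcl3, Sod2 and Traf3 were also higher in each set, but none of the 4 passed the test.

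Of 60 other genes of the pathway, 49 were tested and 12 passed (24.5%, against 20.3% of all genes). The ligands Tnf (log2 fold change -1.19), Ltb (-2.28) and Tnfsf10 (-3.21) were lower at passage 11, and Il33, an alarmin cytokine, was higher (1.70). Ltb, the membrane-bound lymphotoxin beta, was at 40.01 ± 20.96 CPM at passage 4 and 10.1 ± 8.74 CPM at passage 11 (SD, n = 3). The receptors Cd40 (-3.92, at most 3.17 CPM in any library), Tnfrsf10b (-0.85) and Tlr3 (-1.64) were lower. So were the kinase Chuk (-1.40), the deubiquitinase Cyld (-1.27), the paracaspase Malt1 (-1.32) and Tnip3 (-1.46), which went from 113 ± 9.16 CPM to 39.6 ± 16.3 CPM. Otulin, a deubiquitinase, was higher (0.67). Cd14 also fell between passages (log2 fold change -1.15, adjusted p = 0.0052, edgeR) together with the members above. The part of Cd14, of the hepatocyte markers or of the share of mitochondrial counts in the members' differences was not tested.

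The culture experiment compared solid drops with dilute suspension. Of 37 members tested, 7 passed (18.9%, against 29.8% of all genes), 5 higher in Dome (15% of all genes were) and 2 lower (14.7%). The values of the groups did not overlap for 16 members, 9 higher and 7 lower in Dome, against 22.2% and 24.6% of all genes and 46.8% in all. The median log2 fold change was 0.25 for members and -0.04 for all genes. Without Dome replicate 1, the deepest library, 9 members were called higher and 3 lower, without Suspension replicate 2 there were 3 higher and 1 lower, without Dome replicate 3 there was 1 lower, and without Suspension replicate 1 or Suspension replicate 3 there were 0 lower.

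Receptors made up most of the calls, with 4 of 6 passing. Tnfrsf12a, the receptor of the cytokine TWEAK that is linked to ductular cell growth, was at 382, 448 and 309 CPM in Dome 1 to 3 and at 179, 191 and 153 CPM in Suspension 1 to 3. Every Dome culture was above every Suspension culture (log2 fold change 1.12, SE 0.21, adjusted p = 0.0048, edgeR). Ltbr, the lymphotoxin beta receptor, was at 86.1, 61.6 and 75.3 CPM in Dome and at 40.2, 36.7 and 43.1 CPM in Suspension (0.90, SE 0.19, adjusted p = 0.0083, edgeR). Tnfrsf1a was at 49.7, 52.1 and 47.3 CPM in Dome and at 24.4, 32.9 and 32.2 CPM in Suspension (0.73, SE 0.19, adjusted p = 0.0195, edgeR). Il6st went the other way, with 4.65, 2.20 and 3.30 CPM in Dome and 6.94, 8.28 and 8.95 CPM in Suspension (-1.07, SE 0.31, adjusted p = 0.0278, edgeR). Tnfrsf1b and Tlr2 did not pass, with log2 fold changes of 0.32 and -0.40.

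Ier3 had the largest difference of any member between the cultures. It was at 147, 400 and 163 CPM in Dome and at 57.0, 81.6 and 61.0 CPM in Suspension (log2 fold change 1.82, SE 0.37, adjusted p = 0.0065, edgeR), and Dome 2 was far above the other Dome cultures. Il1rn was at 258, 397 and 305 CPM in Dome and at 134, 180 and 131 CPM in Suspension (1.11, SE 0.23, adjusted p = 0.0072, edgeR). Nfkbiz was lower in Dome, at 8.45, 11.0 and 11.5 CPM against 20.2, 15.6 and 21.0 CPM in Suspension (-0.94, SE 0.25, adjusted p = 0.019, edgeR). No overlap was seen for any of these 3 genes. With the replicate number as a block, Bcl3 (0.91, SE 0.25, adjusted p = 0.0152, edgeR) and Cebpd (0.57, adjusted p = 0.0468, edgeR) passed as well. The labels do not say that equal numbers mark the same pool.

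None of the 5 subunits passed between cultures by edgeR, while 2 were higher and 2 lower in Dome at an unadjusted p under 0.05, DESeq2 called 0 and limma-voom called 1 lower. Relb was at 17.1, 24.9 and 21.996 CPM in Dome and at 13.7, 14.9 and 13.1 CPM in Suspension (log2 fold change 0.58, adjusted p = 0.0783, edgeR). Nfkb2, its partner, was at 17.7, 19.8 and 25.3 CPM in Dome and at 11.8, 13.7 and 16.0 CPM in Suspension (0.56, adjusted p = 0.0995, edgeR). Relb and Nfkb2 had Dome values above all Suspension values, as did 22.2% of all genes, and neither passed the test. Of 13 alternatives, 1 called Relb and 0 called Nfkb2. Nfkb1 was at 11.6, 8.07 and 14.8 CPM in Dome and at 19.8, 13.95 and 19.6 CPM in Suspension (-0.62, adjusted p = 0.108, edgeR). Rela was at 36.3, 64.5 and 80.8 CPM in Dome and at 37.5, 42.8 and 44.4 CPM in Suspension (0.51, adjusted p = 0.186, edgeR), so that Dome 1 lay with the Suspension cultures. Nfkbia was at 240, 437 and 354 CPM in Dome and at 253, 214 and 247 CPM in Suspension (0.53, adjusted p = 0.122, edgeR), again with Dome 1 among the Suspension values. Rel was at 1.29 CPM in Dome 1 and at 2.74, 2.60 and 2.76 CPM in Suspension 1 to 3 (-1.56, adjusted p = 0.0714, edgeR). It had 0 counts in Dome 2 and Dome 3, which with a limit of 3 counts allows levels of up to 2.2 and 1.65 CPM.

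**Figure D3:**
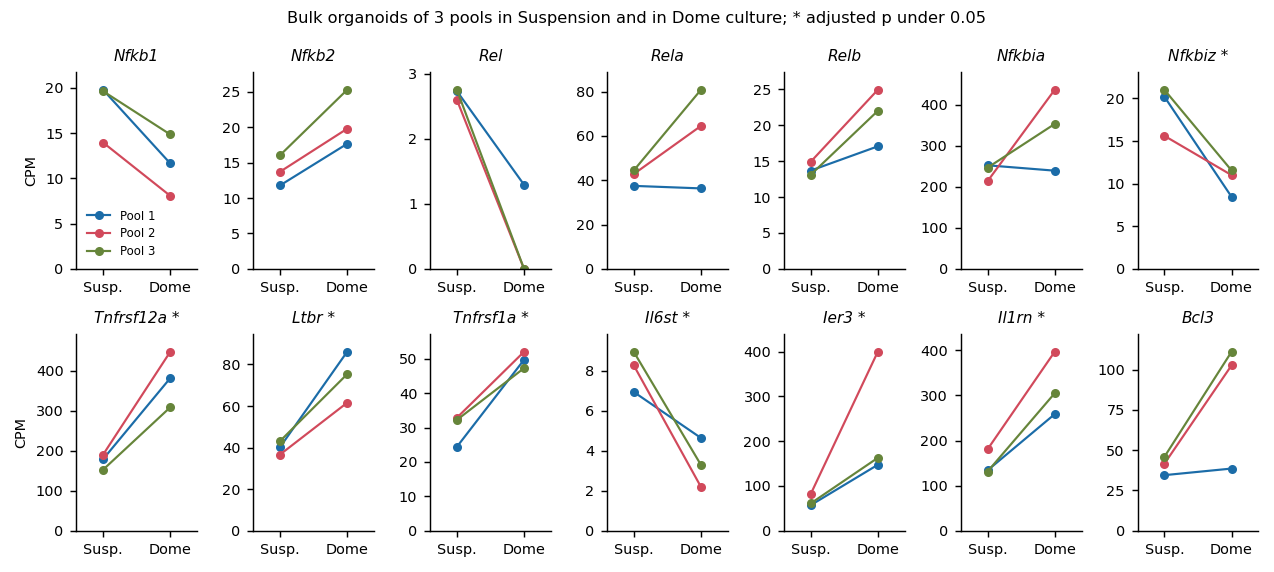
CPM of 14 members in Suspension (Susp.) and Dome cultures, 1 line for each replicate number, with axes from 0. The lines are marked as pools, but the labels do not say that equal numbers are the same pool. An asterisk marks an adjusted p under 0.05. Tnfrsf12a, Ltbr, Tnfrsf1a, Ier3 and Il1rn rise on every line, Nfkbiz and Il6st fall on every line, and Rela and Nfkbia are nearly flat for replicate 1.

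The adaptors and kinases had 0 of 8 calls between cultures by edgeR, and 1 of them, Ripk1 (log2 fold change -0.66), had an unadjusted p under 0.05. DESeq2 called 0 of them, and so did limma-voom. Of 47 other pathway genes tested, 7 passed (14.9%, against 29.8% of all genes). Il18 (2.75), Tnfrsf21 (1.30), Tradd (0.93), Irak2 (0.72) and Tab1 (0.67) were higher in Dome, and Tank (-0.93) and Nfkbid (-1.67) were lower. Tradd, the adaptor that docks on the Tnfrsf1a protein, was at 38.7 ± 2.16 CPM in Dome and 20.3 ± 1.21 CPM in Suspension (SD, n = 3). Cd14 was lower in Dome (-1.60, adjusted p = 0.0045, edgeR) and Cd68 higher (3.06, adjusted p = 0.0223, edgeR), from 6.02 to 90.2 CPM in Dome against 2.74 to 8.04 CPM in Suspension. The part of these genes, of the hepatocyte markers or of the mitochondrial share in the members' differences was not tested.

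The bulk comparisons share no library, and 4 of 37 members tested in both passed in both (10.8%, against 8.6% of 12215 genes), a share near the background. Ier3 and Tnfrsf1a were higher in Dome and lower at passage 11, while Nfkbiz and Il6st were lower in Dome and lower at passage 11. Nfkbia, Tnfaip3 and Tnfaip2, which fell between passages, had log2 fold changes of 0.53, -0.09 and -0.24 between cultures.

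Among single organoids the question was how far organoids differ between and within sets. In the F-test over the 4 sets, 16 of 38 members passed (42.1%, against 34.6% of all genes), among them 5 of 6 survival genes, 4 of 5 other targets, 4 of 8 inhibitors, 2 of 5 subunits, 1 of 6 receptors and 0 of 8 adaptors and kinases. Set 3 had the highest mean log2 CPM for 12 of these 16 members and Set 4 the lowest for 9. Set 3 had only 5 organoids, and the same ranks were not counted over all genes. Whether these counts are particular to the members is therefore not known. The organoids of a set come from 1 mouse, so the p-values measure the spread among organoids and not among mice. With all 42 organoids, 8 members passed.

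Between Sets 3 and 4, 10 members differed, all higher in Set 3 (7.89% of all genes were higher and 3.67% lower, by edgeR with adjustment over all 6 pairs of sets). Tnfaip2 ran from 882 through a median of 1440 to 2147 CPM in Set 3 and from 254 through 329 to 639 CPM in Set 4, with no overlap (log2 fold change 1.90, SE 0.25, adjusted p = 7.81e-07, edgeR). In Set 1 it ran from 377 through 547 to 791 CPM, and in Set 2 from 289 through 482 to 1199 CPM. Nfkbia ran from 673 through 826 to 887 CPM in Set 3 and from 344 through 386 to 645 CPM in Set 4, again with no overlap (0.87, SE 0.18, adjusted p = 0.0012, edgeR). Its ranges in Set 1, from 309 through 607 to 738 CPM, and in Set 2, from 354 through 564 to 887 CPM, spanned most of both. Nfkb1 ran from 45.8 through 53.7 to 67.2 CPM in Set 3 and from 18.6 through 26.7 to 38.2 CPM in Set 4 (1.06, SE 0.23, adjusted p = 0.0017, edgeR). Set 1 ran from 20.6 through 26.7 to 47.4 CPM and Set 2 from 7.36 through 34.1 to 65.2 CPM for this gene. The other 7 members higher in Set 3 than in Set 4 were Tnfaip3, Cflar, Il1rn, Birc3, Nfkbiz, Icam1 and Tnfaip8, with log2 fold changes from 0.62 to 1.37.

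Il1rn had high levels in Sets 1 and 3, from 28.6 through 80.9 to 133 CPM and from 61.7 through 87.3 to 110 CPM, and lower ones in Set 2, from 27.9 through 49.2 to 90.3 CPM, and Set 4, from 18.9 through 32.02 to 65.6 CPM. Set 1 was above Set 4 by 1.15 on the log2 scale (SE 0.22, adjusted p = 4.09e-04, edgeR). Birc3 ran from 3.11 through 6.40 to 9.24 CPM in Set 1, from 3.03 through 6.26 to 8.20 in Set 2, from 5.27 through 8.13 to 11.2 in Set 3 and from 2.23 through 4.29 to 6.87 in Set 4. Cebpd had another order, from 25.0 through 36.4 to 58.7 CPM in Set 1, from 24.8 through 43.6 to 64.4 in Set 2, from 49.5 through 58.6 to 84.6 in Set 3 and from 33.5 through 67.0 to 102 in Set 4. Set 1 was below Set 4 for Cebpd by 0.84 on the log2 scale (SE 0.19, adjusted p = 0.0022, edgeR) and below Set 3 by 0.75 (adjusted p = 0.0237, edgeR), and Set 2 was below Set 4 by 0.60 (adjusted p = 0.0194, edgeR). Bcl3 was likewise highest in Set 4, from 26.1 through 37.9 to 55.7 CPM, against 11.3 through 18.9 to 35.2 CPM in Set 2 (adjusted p = 0.0047, edgeR), and 11.6 through 20.5 to 55.9 CPM in Set 1 and 15.9 through 24.2 to 43.1 CPM in Set 3.

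**Figure D4:**
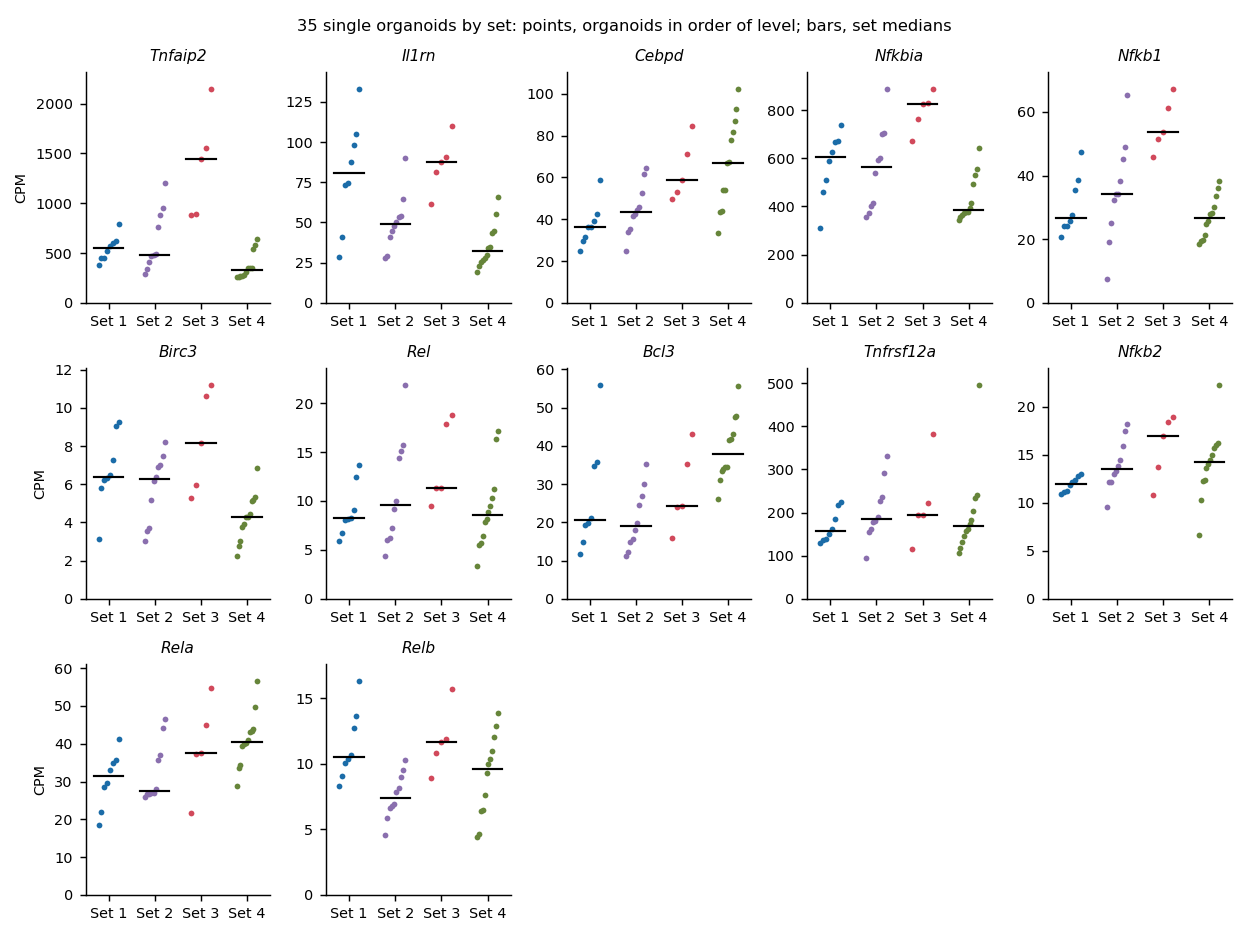
CPM of 12 members in 35 single organoids, 8, 10, 5 and 12 in Sets 1 to 4, with 1 point per organoid in order of level and a bar at the set median. Tnfaip2 and Nfkbia of Set 3 sit above every organoid of Set 4, and for Rel, Tnfrsf12a, Rela and Nfkb2 the sets overlap widely.

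Set 1, the single organoids at passage 11, was compared with each of the other sets. It differed from Set 2 in 3 members (14.3% of all genes differed), from Set 3 in 5, all lower in Set 1 (9.43% of all genes differed and 5.13% were lower), and from Set 4 in 4 (20%). Sets 2 and 3, both at passage 3, differed in 2 members, Tnfaip2 and Il1rn, both lower in Set 2 (3.93% of all genes differed and 1.88% were lower), and Sets 2 and 4 in 5 (12.4%). Without organoid 1, 4 or 5 of Set 3, 1 member was called between Sets 2 and 3. Of the 13 members that fell between bulk passages, 3 were lower in Set 1 than in each other set by their log2 fold changes, namely Tnfaip3, Tnip1 and Ier3. Set 1 had the lowest mean log2 CPM for 12 of all 38 members tested, and the share over all genes was not counted. The 3 of 13 therefore do not show that the bulk difference recurred in Set 1. Ier3 alone passed in all 3 comparisons (-0.56, -0.73 and -0.57, adjusted p = 0.0262, 0.0137 and 0.0198, edgeR). Ier3 averaged 68.1 ± 16.0 CPM in Set 1, 100 ± 23.3 in Set 2, 112 ± 35.1 in Set 3 and 100 ± 25.4 in Set 4 (SD; n = 8, 10, 5 and 12). Tnfaip3 was lower in Set 1 than in Set 3 (-1.68, SE 0.43, adjusted p = 0.0073, edgeR), at 3.06 ± 1.75 CPM against 9.74 ± 3.79 CPM, and Tnfaip2 likewise (-1.34, adjusted p = 9.48e-04, edgeR). In contrast, Relb was higher in Set 1 than in Set 2 (0.62, adjusted p = 0.0275, edgeR) and Birc3 higher in Set 1 than in Set 4 (0.64, adjusted p = 0.0318, edgeR). The tables were normalized separately, so levels are compared within each experiment only.

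Of the other subunits, Relb passed the F-test over sets (adjusted p = 0.0277, edgeR). It ran from 8.29 through 10.5 to 16.3 CPM in Set 1, from 4.60 through 7.39 to 10.3 in Set 2, from 8.95 through 11.7 to 15.7 in Set 3 and from 4.45 through 9.64 to 13.9 in Set 4. Nfkb2 ran from 10.9 through 12.0 to 13.03 CPM in Set 1 and from 6.68 to 22.2 CPM over the other sets, and Rela from 18.4 to 56.6 CPM over all 35 organoids. Neither gene passed the F-test, nor did Rel, whose medians were 8.22, 9.61, 11.3 and 8.53 CPM in Sets 1 to 4. Of 47 other pathway genes tested, 18 passed the F-test over sets (38.3%, against 34.6% of all genes), led by Tnfrsf21, Il1r1, Ltb, Nod1 and Tnfsf10 (adjusted p = 2.25e-06, 4.78e-05, 1.43e-04, 5.73e-04 and 8.89e-04, edgeR).

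Within a set, organoids of the same mouse varied. The SD of log2 CPM within sets, pooled over the 4 sets, had a median of 0.43 over 38 members and 0.50 over all 13927 genes, and at a mean log2 CPM of at least 3 it was 0.41 over 29 members and 0.41 over 8263 genes. A median of 20.6% of the variance of members lay between sets, against 19.3% for all genes. At this level members and other genes therefore had the same median spread. Rel had the largest SD among the 29, at 0.61, of which counting alone would give 0.31, and it ran from 3.40 to 21.9 CPM over the 35 organoids. Il1rn (0.55), Nfkb1 (0.55), Tnfaip2 (0.53), Bcl3 (0.53) and Tnfrsf12a (0.52) followed, and their counting SDs lay between 0.045 (Tnfaip2) and 0.20 (Bcl3). Tnfrsf12a ran from 129 through 156 to 224 CPM in Set 1, from 94.5 through 185 to 332 in Set 2, from 116 through 194 to 382 in Set 3 and from 106 through 168 to 496 in Set 4. Ikbkb had the smallest SD, 0.20, close to its counting SD of 0.19.

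Deviations from the set mean did not run together over the members as a list. Over the 406 pairs of the 29 members, the median Pearson r was 0.033, against -0.0026 for pairs of all genes, and 9.85% of pairs reached 0.5 against 15.2%, with 7.14% against 14.3% at -0.5 or less. The first principal component of the deviations of 8263 genes held 41.9% of their variance, and Sod2 (r = 0.90), Nfkbib (0.85), Myd88 (0.72), Tnfrsf1a (0.71), Rela (0.65) and Tnfrsf12a (0.62) correlated with it positively over the 35 organoids. Ripk1 (-0.84), Traf3 (-0.76), Nfkb1 (-0.73), Cflar (-0.70), Nfkbiz (-0.69) and Rel (-0.66) correlated with it negatively, and Nfkbia (-0.10) and Tnip1 (0.15) were close to 0. In all, 6 of the 29 had an r of at least 0.6 with it (20.7%, against 26.4% of the 8263 genes), 6 one of -0.6 or less (20.7% against 27.4%), and 17 lay between. The component's own r was 0.37 with the log2 total count and -0.21 with the mitochondrial share. The strongest pairs were Nfkbib with Sod2 (r = 0.80), Rela with Nfkbib (0.76) and Tnip2 with Ripk1 (0.73), and the most opposed were Nfkbib with Ripk1 (-0.76) and Ripk1 with Sod2 (-0.74). These values are descriptions, since all 35 libraries share a pooled preparation and differ in depth. Bcl3 and Ltbr had an r of 0.61 with the log2 total count and Rel one of -0.57, and the part of depth in their spread was not tested.

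**Figure D5:**
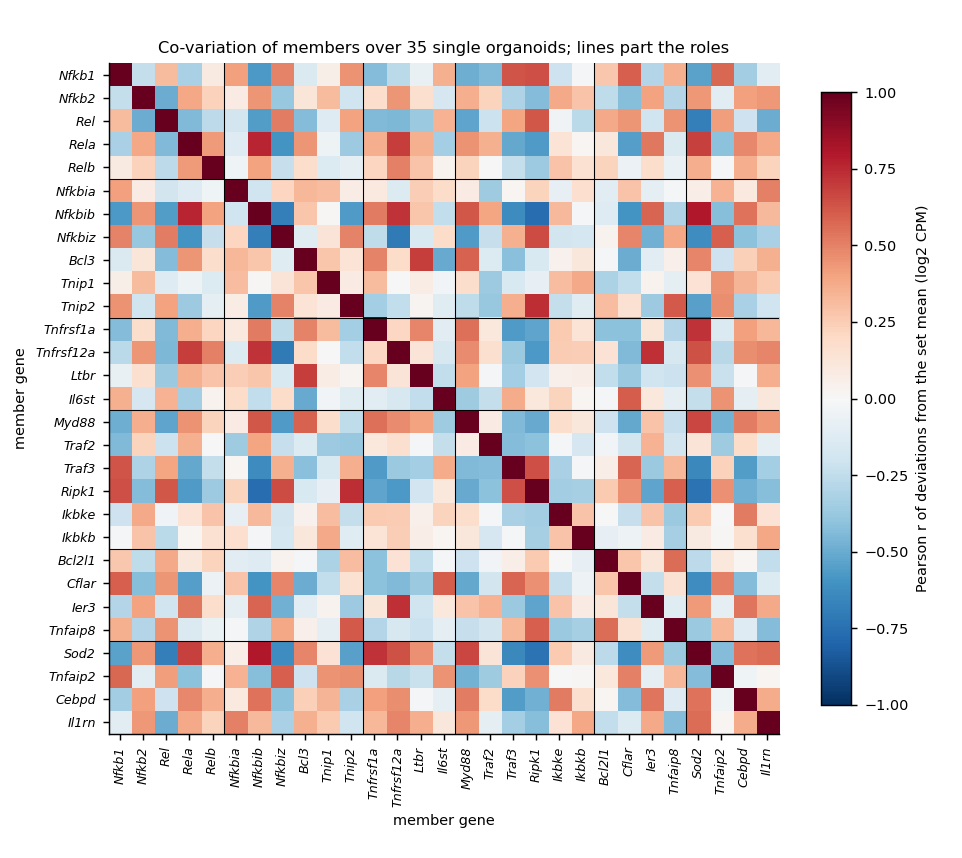
Pearson r between 29 members of the deviations of log2 CPM from the set mean over 35 single organoids, in order of role, with red for positive and blue for negative r and black lines between roles. Sod2, Nfkbib and Rela are red with each other (r from 0.68 to 0.80) and blue with Ripk1, Nfkbiz and Nfkb1.

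Some organoids were the highest of their set for several members, mostly at shares not far from those of all genes. The sixth organoid of Set 1 was highest in its set for 11 of 29 members (37.9%, against 30% of all genes of that level), and the first of Set 3 for 8 (27.6% against 26.2%). With 7 members each followed the fifth of Set 1 (24.1% against 15.3%), the eleventh of Set 2 (24.1% against 19.6%), the third of Set 3 (24.1% against 24.8%) and the thirteenth of Set 4 (24.1% against 10.1%). The last was the deepest library of Set 4, with 7383116 counts. These counts are descriptions and were not tested.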

How the data were processed

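Libraries were prepared from transcript 3′ ends with molecular identifiers, and the authors deposited 3 tables of raw counts per gene, made with zUMIs (STAR, SAMtools 1.9 and featureCounts) on mm10 with Ensembl gene models and down-sampled within zUMIs. No source used here says whether the deposited counts are molecules or reads. The counting SDs take each count as 1 independent molecule, and whether that holds was not tested. The standard errors of fold changes also include the spread between samples. Sequencing of 3′ ends yields about 1 tag per transcript, and levels were compared within a gene.

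Counts were analysed in R 4.3.3 with edgeR 4.0.16: filterByExpr (minimum count 3) selected the genes, libraries scaled by TMM, and groups compared by the quasi-likelihood F-test with Benjamini-Hochberg adjustment over all genes tested and a threshold of 0.05. CPM use the scaled library sizes, and log2 CPM an offset of 0.5 counts. Technical replicates were summed. The 35 single organoids are those with values in the study's normalized table. Alternatives were limma 3.58.1 voom, DESeq2 1.42.0, RLE size factors, other count filters, thinned libraries, left-out replicates and replicate blocks. The main edgeR fit of each experiment was also run on simulated counts with known changes, and the alternatives were not.

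The members and lists were chosen with earlier results of these data known. Genes were given sample by sample when called without overlap (at most 8 per direction, by size of change), for the subunits and Nfkbia always, and in single organoids for the 6 smallest F-test p-values and the 6 largest SDs. Deviations of samples with the same number correlated by 0.133, 0.153 and 0.188 in the culture experiment and by 0.098, 0.028 and 0.086 in the passage experiment. Samples of different numbers were not compared in this way, and the labels do not say that equal culture numbers mark the same pool. The pairing of cultures by number is therefore an assumption. Passage sets pair the samples because each is 1 mouse. Organoid numbers are only names. Replicates were pools of mice in the culture experiment and mice in the passage experiment.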

Additional observations from a re-analysis of the deposited data

Results flagged for a closer look

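Of the members, 3 moved in opposite directions between passages in different mice, in both technical replicates of each culture. These differences between sets were not tested. Cebpd was higher at passage 11 in Set 1, by 1.03 on the log2 scale, and lower in Set 3, by -0.21, and in Set 4, by -0.22. Ltbr was higher at passage 11 in Set 1, by 0.29 on the log2 scale, and lower in Set 4, by -0.32. Bcl2l1 was higher at passage 11 in Set 4, by 0.49 on the log2 scale, and lower in Set 1, by -0.23. For the members plotted in single organoids, Sets 1 to 3 were searched for an organoid far from the others. In these 36 combinations of member and set 0 were found, and Set 4 and the other members were not searched.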

How the results depend on the processing

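No called result changed direction under any alternative, and 0 members were called higher at passage 11 under every one. Thinning all libraries to the smallest total lowered most counts. It left 3 higher and 0 lower in Dome, 7 lower at passage 11, 6 in the F-test over sets, 1 between Sets 1 and 3, 1 between Sets 2 and 3, 1 between Sets 2 and 4, 3 between Sets 3 and 4 and 12 over all pairs of sets, in place of 29, and it raised the median SD within sets from 0.43 to 0.69. These fits hold fewer counts by construction. With all 42 organoids, 8 members passed the F-test, 3 differed between Sets 1 and 3, 2 between Sets 1 and 4, 1 between Sets 2 and 3, 2 between Sets 2 and 4 and 17 over all pairs. DESeq2 called 1 lower in Dome and 1 between Sets 2 and 3, where RLE size factors and a minimum count of 10 also gave 1 and limma-voom gave 5. Limma-voom gave 7 between Sets 1 and 4, and no count filter gave 3 between Sets 2 and 4. The cause was not tested.

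Leaving out 1 culture in turn gave 3 to 9 members higher and 0 to 3 lower in Dome, and 9 to 12 lower at passage 11. Leaving out 1 organoid of Set 3 in turn gave 14 to 17 in the F-test, 4 between Sets 1 and 2, 4 to 5 between Sets 1 and 3, 1 to 2 between Sets 2 and 3, 8 to 10 between Sets 3 and 4 and 27 to 29 over all pairs. Without Set 3 at both passages, an alternative chosen after seeing the data, 3 members were lower at passage 11, without Set 1 there were 12, and without Set 4 there were 10.

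With the replicate number as a block, 7 members were higher and 2 lower in Dome, and 16 were lower at passage 11. Apart from Bcl3, Cebpd, Nfkb1, Nfkb2 and Il1rn, which gained a call, the block changed no other call in the bulk comparisons. With the organoid number as a block, which pairs nothing, 8 members passed the F-test and 6 differed between Sets 3 and 4.

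Tnfaip3 and Nfkbiz were called lower at passage 11 in 18 of 18 alternatives, Icam1 in 5, Birc2 in 8, Tnfrsf1a in 9 and Relb in 11. Ier3 and Tnfrsf12a were called in 13 of 13 for the cultures and Il6st in 7. Tnfaip2, Il1rn, Cebpd and Nfkbia were called over the sets in 13 of 13. The smallest libraries, of 1059002 to 1776490 counts, limit what can be seen for low genes such as Rel and Icam1.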
